A study of Homo sapiens with 12 samples.

Results

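The 10 genes described here encode proteins that take a cell into mitosis and separate its chromosomes: CCNB1, CCNB2, PLK1, CDCA3, MELK, HASPIN, BIRC5, SGO1, SKA2 and MKI67. They were chosen by name, with earlier results of these data known. Each was read from the transcript cluster of its symbol with the highest mean over 12 arrays. All 10 were named on the array by 1 transcript cluster each, and all 10 were among the 11105 genes tested, of 14812 genes with a symbol and 44629 transcript clusters in all. The samples were LNCaP, a human prostate cancer cell line that responds to androgens, infected with a control plasmid (MSCV-LMP) that every group carried. Subconfluent cells received 1 nM cabazitaxel, 1 nM docetaxel or the ethanol vehicle for 16 h, in full serum or in charcoal dextran treated serum, which is depleted of steroids. Each of the 6 combinations was measured on 2 Affymetrix Human Gene 2.0 ST arrays. The labels do not say whether the duplicates were separate cultures, and if they were not, the p-values reflect technical spread only.

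Entry into mitosis is driven by the kinase CDK1 bound to a B-type cyclin. Many of the genes for these cyclins, for their helpers and for the kinetochore machinery are transcribed mainly in G2 and mitosis. Taxanes bind microtubules and stop them from shortening, so that chromosomes fail to attach correctly and the spindle checkpoint holds cells in mitosis. The amount of a G2 and mitosis transcript in a culture therefore depends both on how many cells are in those phases and on how much each cell makes, and bulk arrays cannot tell these apart.

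Many G2 and mitosis promoters hold a cell cycle genes homology region, a short element bound by MuvB complexes, downstream of boxes for the factor NF-Y. RefSeq promoter windows (GRCh38.p14, 250 bases before to 50 after each start) were matched for 8 of the 10 genes, all but BIRC5 and HASPIN. They were searched on both strands for the homology region as TTTGAA or its variant form TTTAAA, and for the NF-Y box by its core CCAAT. The homology element was found in 5 of the 8 windows and in 24% of all 35116 windows, the NF-Y core in 7 of the 8 and in 34.6% of all, and both in 5 of the 8 and in 9.27% of all. Among 113 windows of the other mitosis genes listed for comparison, some of which have several starts, 53.1% held the homology element and 59.3% the NF-Y core. The 5 promoters below are shown from 130 bases before to 20 bases after the start, because the levels of these genes recur in the comparisons that follow; capitals mark the 2 kinds of match.
CCNB1 (chr5:69167020-69167169, plus strand): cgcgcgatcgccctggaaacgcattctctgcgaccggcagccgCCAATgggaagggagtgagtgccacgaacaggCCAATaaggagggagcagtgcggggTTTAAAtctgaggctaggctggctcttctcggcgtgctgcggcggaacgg
CCNB2 (chr15:59105016-59105165, plus strand): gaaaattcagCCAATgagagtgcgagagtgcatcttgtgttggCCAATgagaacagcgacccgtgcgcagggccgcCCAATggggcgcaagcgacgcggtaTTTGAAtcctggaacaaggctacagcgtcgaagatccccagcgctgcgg
MELK (chr9:36572765-36572914, plus strand): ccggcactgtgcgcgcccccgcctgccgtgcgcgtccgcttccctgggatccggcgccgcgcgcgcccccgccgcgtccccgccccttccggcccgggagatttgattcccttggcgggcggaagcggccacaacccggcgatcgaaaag
SGO1 (chr3:20186187-20186336, minus strand): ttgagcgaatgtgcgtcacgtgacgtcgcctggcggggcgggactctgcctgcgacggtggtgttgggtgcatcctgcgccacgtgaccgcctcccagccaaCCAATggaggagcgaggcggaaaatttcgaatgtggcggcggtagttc
SKA2 (chr17:59155167-59155316, minus strand): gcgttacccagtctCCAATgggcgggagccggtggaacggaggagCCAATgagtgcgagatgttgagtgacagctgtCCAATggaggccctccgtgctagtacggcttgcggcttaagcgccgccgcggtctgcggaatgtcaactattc
CCNB1 and CCNB2 had the homology element 30 and 29 bases before the start, with NF-Y cores at 55 and 87 bases before it in CCNB1 and at 54, 87, 120 and 244 bases before it in CCNB2, which also had a homology element at 193 bases. PLK1 and MKI67 also had a homology element that began 29 bases before the start, beside others at 88 and 148 bases in PLK1 and at 47 bases in MKI67. The one at 29 bases in MKI67 overlapped an NF-Y core on the opposite strand. CDCA3 had the element 3 bases before the start. For the 2 forms of the element searched, SGO1 and SKA2 had only NF-Y cores in this window, and MELK had neither match. Other forms of the element were not searched. A match describes letters, not binding.

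**Figure D1:**
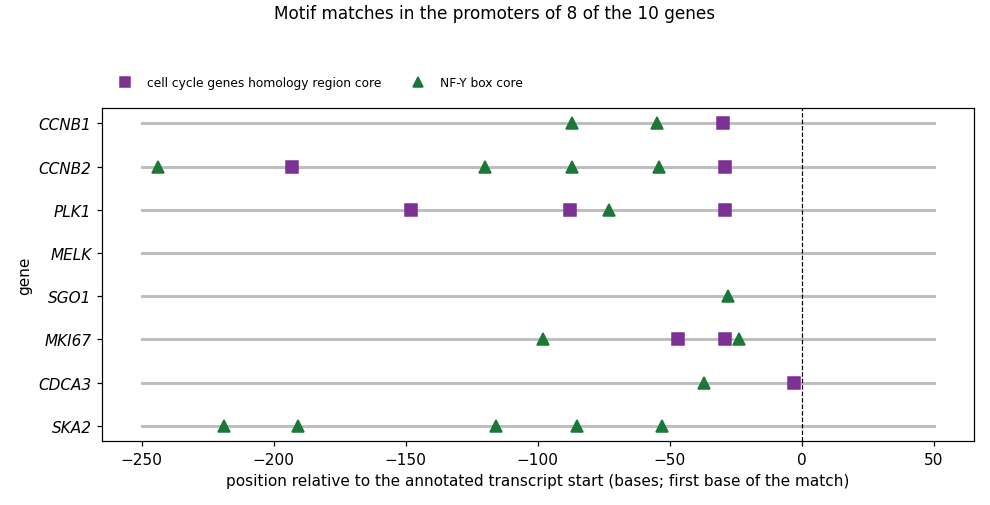
Positions of homology element matches (squares) and NF-Y core matches (triangles) in the RefSeq promoter windows of 8 genes, in bases from the annotated start (dashed line). CCNB1, CCNB2, PLK1 and MKI67 had a square 29 or 30 bases before the start, SKA2 had 5 triangles and no square, and MELK had no mark.

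The deposited values are normalised intensities on a linear scale, and log2 of them was used for all differences. The median over all clusters was 22.2 to 22.4 on each array, and duplicates correlated at 0.986 to 0.992 across genes. The 10 genes were well above the dim end of the array: 81.5% to 98.7% of genes with a symbol were dimmer. Intensities of different genes come from different probes and are not compared with each other. The epithelial markers KLK3 (478 to 1466), FOLH1 (763 to 1421) and KRT18 (222 to 288) were bright on all 12 arrays, while the leukocyte marker CD14 (19.3 to 21.8) and the fibroblast marker DCN (18.0 to 19.0) lay near the floor. Of 8 epithelial markers 5 were named on the array, the dimmer ones being KLK2 (92.0 to 364) and HOXB13 (86.0 to 120). Of 10 markers of other cells 4 were named, the others being SYP (22.5 to 26.9) and CHGA (22.4 to 25.4). Arrays give no read depth, and 2 arrays per group limit the precision.

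No mitotic gene passed an adjusted p of 0.05 in any of the 13 comparisons of drug and serum. In 11 of these comparisons the share of all 11105 genes that passed was also 0%. It was 0.396% for full against charcoal serum in vehicle-treated cells and 2.31% for full against charcoal serum over the 3 treatments. The sizes below are therefore values with their intervals, and their order was not established by the test. Before adjustment, 5 of the 10 genes had a p under 0.05 for cabazitaxel against vehicle over both sera, where 4.68% of all genes did. For docetaxel against vehicle 2 of the 10 did, beside 6.05% of all genes. The shares over all genes are given as background. No excess among the 10 is read from them, because the 10 were chosen with earlier results of these data known. The drug comparisons share the vehicle arrays, so their values are given side by side and are not independent of each other.

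**Figure D2:**
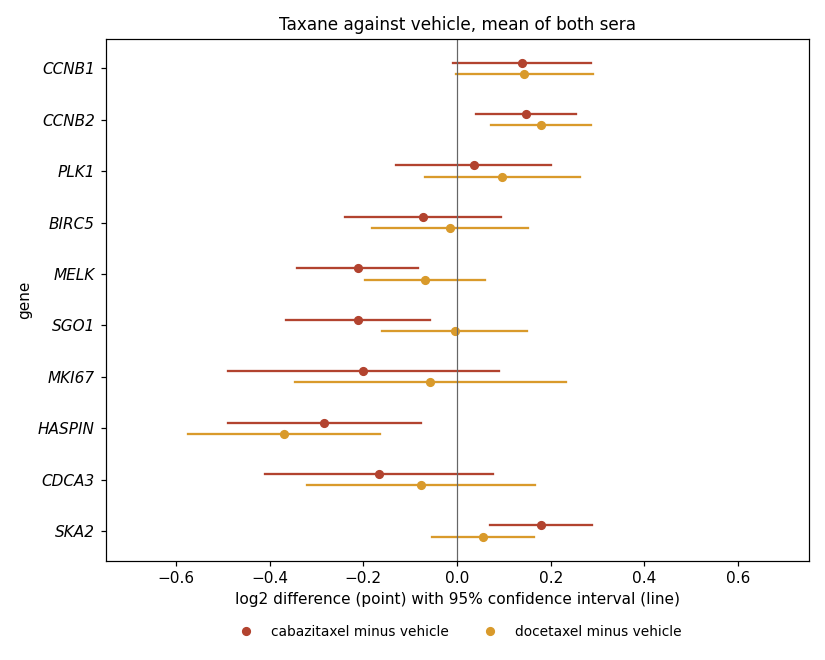
Log2 difference from vehicle for each gene, averaged over both sera, with its 95% confidence interval, for cabazitaxel (red, upper) and docetaxel (orange, lower). CCNB2 lay above 0 and HASPIN below 0 with intervals that left out 0 for both drugs, while MELK and SGO1 lay below 0 and SKA2 above 0 with such intervals for cabazitaxel.

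CCNB1 and CCNB2 encode the B-type cyclins that activate CDK1. In full serum CCNB2 read 225 and 216 on the cabazitaxel arrays and 217 and 227 on the docetaxel arrays, against 208 and 205 on the vehicle arrays. In charcoal serum it read 209 and 220 with cabazitaxel and 218 and 227 with docetaxel, against 189 and 184 with vehicle. Every taxane array was above every vehicle array of its serum, and the vehicle arrays in charcoal serum were the lowest of all. Over both sera the difference was 0.15 (95% interval 0.04 to 0.25, adjusted p = 0.958) for cabazitaxel and 0.18 (0.07 to 0.29, adjusted p = 0.757) for docetaxel on the log2 scale. It was 0.09 with cabazitaxel and 0.10 with docetaxel in full serum, and 0.20 with cabazitaxel and 0.25 with docetaxel in charcoal serum. Ordered by group mean, both docetaxel groups and cabazitaxel in full serum (7.78 to 7.80 log2) were within 1 pooled SD (0.04) of each other. A pooled SD is the spread between duplicates of that gene alone, whereas the test also draws on the spread of other genes. The vehicle group in charcoal serum (7.54) was 3.84 pooled SDs below the vehicle group in full serum (7.69). In the test this difference of 0.15 had an interval that held 0 (-0.0016 to 0.30, adjusted p = 0.591).

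CCNB1 had values of the same size with a wider spread. In full serum it read 446 and 449 with cabazitaxel and 502 and 431 with docetaxel, against 410.5 and 375 with vehicle, so that neither drug overlapped vehicle there, as was the case for 30.9% of all genes with cabazitaxel and for 34.1% with docetaxel. In charcoal serum it read 422 and 465 with cabazitaxel and 436 and 421 with docetaxel, against 439 and 396 with vehicle, and each drug overlapped vehicle. The log2 difference over both sera was 0.14 (-0.01 to 0.29) for cabazitaxel and 0.14 (-0.0031 to 0.29) for docetaxel. Within full serum it was 0.19 for cabazitaxel and 0.25 for docetaxel. No group mean was more than 1 pooled SD (0.10) from the next.

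PLK1, the kinase that helps to switch on CDK1 and matures the spindle poles, read 143 to 197 over the cabazitaxel arrays and 170 to 187 over the docetaxel arrays, against 156 to 175 over the vehicle arrays. Its log2 difference over both sera was 0.04 (-0.13 to 0.20) for cabazitaxel and 0.10 (-0.07 to 0.26) for docetaxel. When single arrays were left out, the cabazitaxel value of PLK1 lay between -0.04 and 0.11. CDCA3, an F-box-like protein that promotes the removal of the CDK1 inhibitor WEE1, differed by -0.17 (-0.41 to 0.08) with cabazitaxel and by -0.08 (-0.32 to 0.17) with docetaxel. In charcoal serum CDCA3 read 61.6 and 76.4 with cabazitaxel, against 90.0 and 90.3 with vehicle, a log2 difference of -0.39 (-0.74 to -0.05, adjusted p = 1.00). The docetaxel arrays in charcoal serum read 96.9 and 67.9, the widest gap between duplicates of any CDCA3 group. The cabazitaxel effect on CDCA3 in full minus that in charcoal serum was 0.45 (-0.03 to 0.94, adjusted p = 0.999). Only the cabazitaxel group in charcoal serum (6.10 log2) was more than 1 pooled SD (0.20) from its neighbour for CDCA3, and no PLK1 group was (pooled SD 0.12).

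MELK, a kinase whose transcript accompanies proliferation, was lower on the cabazitaxel arrays of both sera. In full serum it read 136 and 148 with cabazitaxel and 160 and 147 with docetaxel, against 162 and 169 with vehicle. In charcoal serum it read 121 and 123 with cabazitaxel and 146 and 130 with docetaxel, against 142 and 140 with vehicle. Cabazitaxel arrays did not overlap the vehicle arrays in either serum, and docetaxel arrays overlapped them in charcoal serum. The log2 difference over both sera was -0.21 (-0.34 to -0.08, adjusted p = 0.854) for cabazitaxel and -0.07 (-0.20 to 0.06) for docetaxel. The cabazitaxel difference was -0.22 in full serum and -0.20 in charcoal serum. By group mean, vehicle (7.37 log2), docetaxel (7.26) and cabazitaxel (7.15) in full serum were each more than 1 pooled SD (0.07) apart. Cabazitaxel in charcoal serum (6.93) was 2.34 pooled SDs below docetaxel there (7.11). In the test that last difference was -0.17, with an interval that held 0 (-0.35 to 0.01, adjusted p = 0.886).

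HASPIN, BIRC5 and SGO1 act at the centromere. HASPIN phosphorylates histone H3 and so places the chromosomal passenger complex there, BIRC5 (survivin) is a subunit of that complex, and SGO1 protects centromeric cohesin until anaphase. Averaged over both sera, HASPIN had the most negative difference of the 10 genes for each drug, and within a serum for docetaxel in charcoal serum only. In full serum it read 81.4 and 87.2 with cabazitaxel and 85.0 and 84.4 with docetaxel, against 105 and 87.8 with vehicle. In charcoal serum it read 85.9 and 64.1 with cabazitaxel and 66.7 and 64.5 with docetaxel, against 104 and 89.8 with vehicle. All 8 taxane arrays were below the vehicle arrays of their serum, in full serum by less than 1 unit between the nearest arrays. The log2 difference was -0.28 (-0.49 to -0.08, adjusted p = 0.958) for cabazitaxel and -0.37 (-0.57 to -0.16, adjusted p = 0.757) for docetaxel over both sera. Within full serum it was -0.19 for cabazitaxel and -0.18 for docetaxel, and within charcoal serum -0.38 for cabazitaxel and -0.56 (-0.85 to -0.27, adjusted p = 0.941) for docetaxel. The 2 vehicle groups were within 0.01 of each other (6.59 log2 each), and the order below them was docetaxel and cabazitaxel in full serum (6.40 each), cabazitaxel in charcoal serum (6.21) and docetaxel in charcoal serum (6.03), with a pooled SD of 0.16.

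SGO1 was low on the cabazitaxel arrays in full serum. There it read 69.6 and 68.4 with cabazitaxel and 94.1 and 85.4 with docetaxel, against 83.1 and 88.0 with vehicle. The charcoal serum arrays read 72.6 and 81.4 with cabazitaxel and 85.0 and 72.9 with docetaxel, against 88.0 and 78.4 with vehicle, and all 3 groups overlapped. The log2 difference was -0.31 (-0.53 to -0.09, adjusted p = 0.999) for cabazitaxel in full serum and -0.11 (-0.33 to 0.11) in charcoal serum, or -0.21 (-0.36 to -0.06, adjusted p = 0.958) over both. For docetaxel it was -0.01 (-0.16 to 0.15) over both sera. BIRC5 differed by -0.07 (-0.24 to 0.09) with cabazitaxel and by -0.02 (-0.18 to 0.15) with docetaxel, and both values took either sign when single arrays were left out (-0.16 to 0.0082 for cabazitaxel and -0.064 to 0.032 for docetaxel). Only the cabazitaxel group of SGO1 in full serum (6.11 log2) was more than 1 pooled SD (0.10) from its neighbour, and no BIRC5 group was (pooled SD 0.12).

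**Figure D3:**
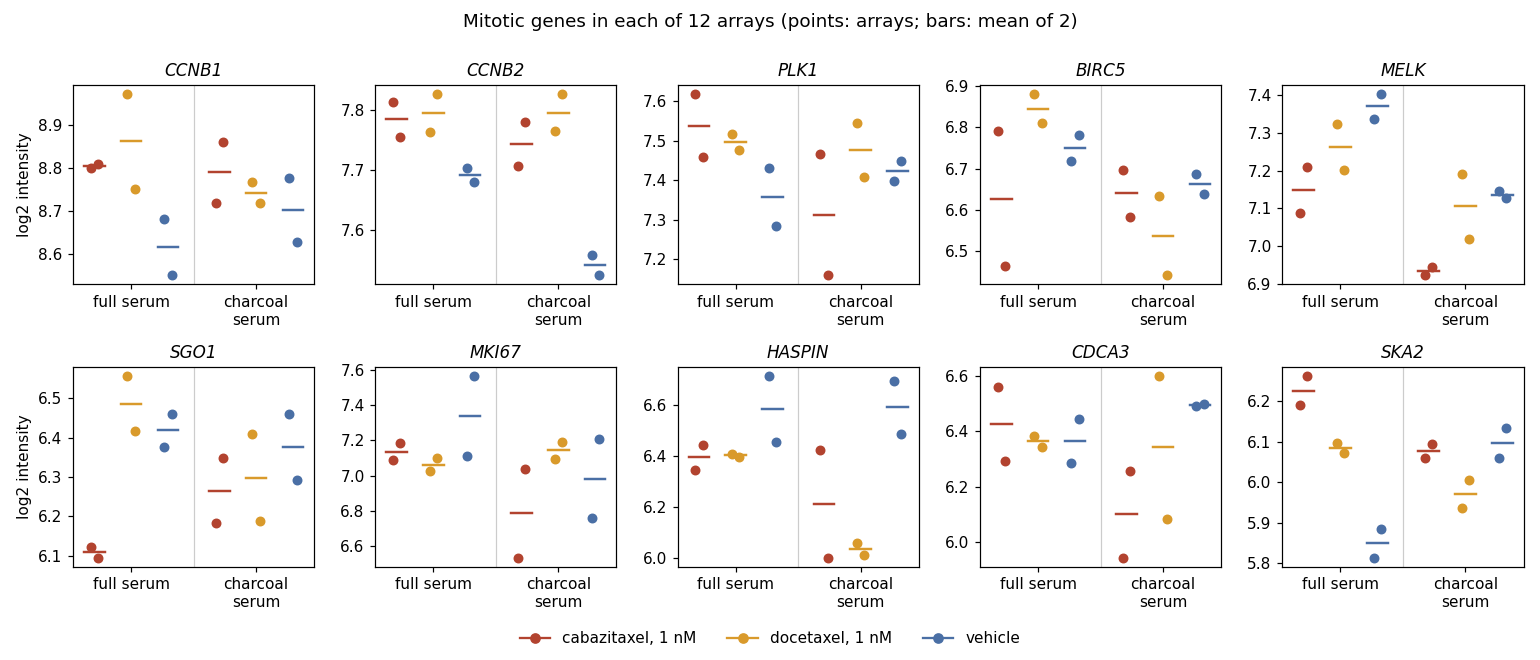
Log2 intensity of each gene on each of the 12 arrays (points) with the mean of the 2 arrays of a group (bars), for cabazitaxel (red), docetaxel (orange) and vehicle (blue) in full and in charcoal serum; each panel has its own vertical scale. The taxane points of CCNB2 lie above and those of HASPIN below the vehicle points of both sera, and SKA2 has its lowest points with vehicle in full serum.

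SKA2 encodes a subunit of the Ska complex, which couples kinetochores to microtubule ends. In full serum it read 73.0 and 76.7 with cabazitaxel and 68.4 and 67.4 with docetaxel, against 56.3 and 59.1 with vehicle. In charcoal serum it read 66.7 and 68.3 with cabazitaxel and 61.2 and 64.3 with docetaxel, against 66.7 and 70.2 with vehicle. The taxane arrays were thus all above vehicle in full serum and were level with or below it in charcoal serum. The log2 difference was 0.38 (0.22 to 0.53, adjusted p = 0.887) for cabazitaxel and 0.24 (0.08 to 0.39, adjusted p = 0.880) for docetaxel in full serum, and -0.02 (-0.17 to 0.13) for cabazitaxel and -0.13 (-0.28 to 0.03) for docetaxel in charcoal serum. The effect in full minus that in charcoal serum was 0.40 (0.18 to 0.61, adjusted p = 0.999) for cabazitaxel and 0.36 (0.14 to 0.58, adjusted p = 0.999) for docetaxel. SKA2 alone, 1 of the 10 genes, had an unadjusted p under 0.05 for this interaction, beside 3.42% of all genes for cabazitaxel and 3.61% for docetaxel. Both full serum differences and both interactions rest on the same pair of vehicle arrays in full serum, which had the lowest SKA2 intensities of the 12. In order of group means, cabazitaxel in full serum (6.23 log2) was 2.99 pooled SDs (0.04) above the next group. The vehicle group in charcoal serum, docetaxel in full serum and cabazitaxel in charcoal serum (6.08 to 6.10) were within 1 pooled SD of each other. Vehicle in full serum (5.85) was 2.82 pooled SDs below docetaxel in charcoal serum (5.97). The gaps of 2.99 and 2.82 pooled SDs were not among the 13 comparisons tested. Averaged over both sera the difference was 0.18 (0.07 to 0.29) for cabazitaxel and 0.05 (-0.05 to 0.16) for docetaxel.

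MKI67 encodes the Ki-67 protein that coats mitotic chromosomes and marks proliferating cells. It had the widest spread between duplicates, with a pooled SD of 0.24 log2, and no group mean was more than 1 pooled SD from the next. In 6 of 6 groups MKI67 was higher on array 2 than on array 1, a one-way pattern found in 7.83% of all genes. In full serum it read 136 and 145 with cabazitaxel and 131 and 137 with docetaxel, against 138 and 189 with vehicle. On the charcoal serum arrays it read 92.8 and 131 with cabazitaxel and 137 and 146 with docetaxel, against 108 and 148 with vehicle. The log2 difference over both sera was -0.20 (-0.49 to 0.09) for cabazitaxel and -0.06 (-0.35 to 0.23) for docetaxel.

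**Figure D4:**
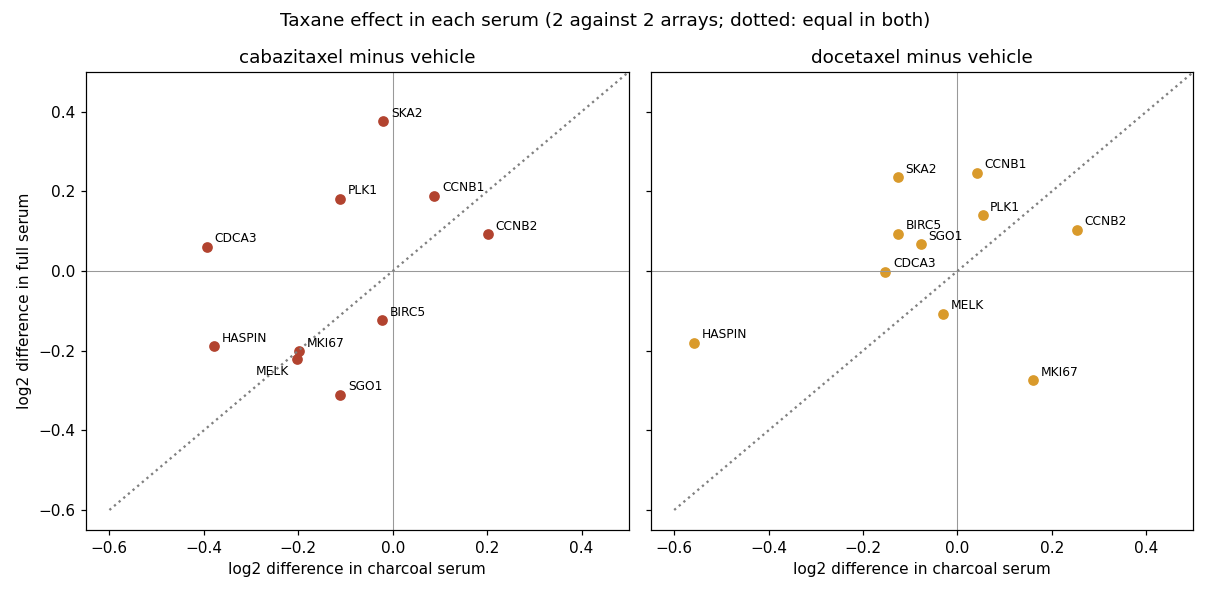
Log2 difference from vehicle in full serum (vertical) against that in charcoal serum (horizontal) for each gene, with cabazitaxel on the left and docetaxel on the right; the dotted line marks equal values. CDCA3 and SKA2 stand farthest above the line for cabazitaxel, CCNB2 is above 0 on both axes in both panels, and HASPIN is below 0 on both axes in both panels.

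Within each serum none of the 10 genes was called for either drug, and neither was any other gene tested. Of the 10 genes, 3 had an unadjusted p under 0.05 for cabazitaxel in full serum (MELK, SGO1 and SKA2, beside 4.02% of all genes) and 4 in charcoal serum (CCNB2, MELK, HASPIN and CDCA3, beside 4.2%). For docetaxel these were CCNB1 and SKA2 in full serum, beside 5.2% of all genes, and CCNB2 and HASPIN in charcoal serum, beside 5.11%. Arrays of drug and vehicle did not overlap in either serum for 3 of the 10 genes with cabazitaxel (CCNB2 higher, MELK and HASPIN lower) and for 2 with docetaxel (CCNB2 higher, HASPIN lower), against 5.39% and 7.03% of all genes. The median over the 10 genes was -0.12 for cabazitaxel and -0.01 for docetaxel, beside 0.00 and 0.01 over all genes tested.

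The taxanes were set against each other at the same dose and time. Cabazitaxel carries methoxy groups at positions where docetaxel has hydroxyl groups. This 1 pair of drugs was compared in all 10 genes over both sera and within each serum. None of the differences passed the test, and 0% of all genes did. Over both sera 8 of the 10 genes were lower with cabazitaxel, beside 55.4% of all genes, a count that was not itself tested. SGO1 was lower with cabazitaxel by a log2 difference of -0.21 (-0.36 to -0.05, adjusted p = 0.958), which was -0.38 (-0.60 to -0.16, adjusted p = 1.00) in full serum and -0.03 (-0.25 to 0.19) in charcoal serum. MELK differed by -0.14 (-0.27 to -0.01, adjusted p = 0.958) and SKA2 by 0.12 (0.01 to 0.23, adjusted p = 0.958). These 3 genes had an unadjusted p under 0.05, beside 4.56% of all genes, and only SKA2 had arrays that did not overlap in either serum, beside 6.11% of all genes.

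The other 7 genes had intervals that held 0 for cabazitaxel minus docetaxel. The B-type cyclins were the closest, with -0.0046 (-0.15 to 0.14) for CCNB1 and -0.03 (-0.14 to 0.08) for CCNB2. PLK1 and BIRC5 were at -0.06 each (-0.23 to 0.10 and -0.22 to 0.11), and CDCA3 was at -0.09 (-0.33 to 0.15). HASPIN was at 0.09 (-0.12 to 0.29) and MKI67 at -0.14 (-0.43 to 0.15). A difference of up to 0.43 log2 in MKI67 thus lies within its interval, and a missed threshold does not show that the drugs act alike on these genes.

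Full serum, which keeps the steroids that charcoal treatment depletes, went with positive differences of small size over the 3 treatments. No group had androgen added back, so an effect of androgen itself was not tested. Averaged over the 3 treatments all 10 genes had positive log2 differences for full minus charcoal serum, with a median of 0.07, beside a median of 0.00 over all genes, 50.9% of which were lower. MELK differed by 0.20 (0.10 to 0.31, adjusted p = 0.0566), and its arrays did not overlap within any treatment, as was the case for 1 of the 10 genes and for 4.97% of all genes. Of the alternative fits that kept all arrays, only quantile normalization (adjusted p = 0.0426) and a replicate block (adjusted p = 0.0499) brought MELK under the threshold. Without the first docetaxel array in charcoal serum its difference was 0.23. MKI67 differed by 0.21 (-0.03 to 0.44, adjusted p = 0.459), HASPIN by 0.18 (0.01 to 0.35, adjusted p = 0.319) and BIRC5 by 0.13 (-0.01 to 0.26, adjusted p = 0.413). CDCA3 (0.07), CCNB2 and PLK1 (0.06 each), SGO1 and CCNB1 (0.02 each) and SKA2 (0.01) all had intervals that held 0, and CCNB1, SGO1, CDCA3 and SKA2 took either sign when single arrays were left out. MELK and HASPIN had an unadjusted p under 0.05, beside 13.5% of all genes.

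In vehicle-treated cells alone 5 of the 10 genes were higher and 5 lower in full serum. MELK read 162 and 169 in full serum, against 142 and 140 in charcoal serum, a log2 difference of 0.23 (0.05 to 0.41, adjusted p = 0.420). SKA2 ran the other way, at 56.3 and 59.1 in full serum, against 66.7 and 70.2 in charcoal serum, with a difference of -0.25 (-0.40 to -0.09, adjusted p = 0.255). These were the 2 genes with an unadjusted p under 0.05, beside 8.57% of all genes.

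**Figure D5:**
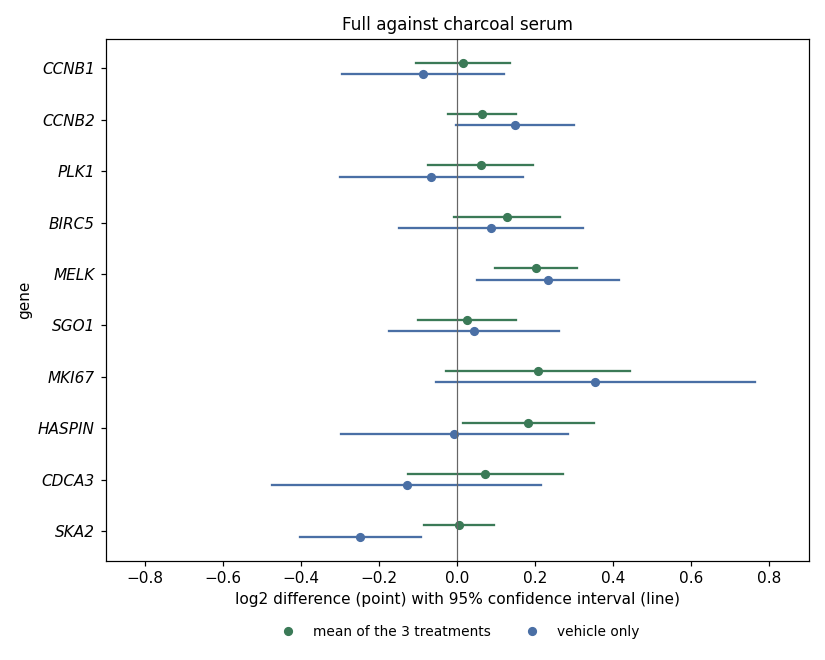
Log2 difference of full minus charcoal serum for each gene with its 95% confidence interval, averaged over the 3 treatments (green, upper) and in vehicle-treated cells only (blue, lower). All green points lie above 0, with MELK at 0.20, and the blue point of SKA2 lies at -0.25.

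The 100 other listed genes of mitosis gave 73 that could be tested. With cabazitaxel 52 of the 73 were lower than with vehicle (median -0.05), beside 48.9% of all genes. With docetaxel 33 were lower (median 0.01), beside 45% of all genes, and none was called for either drug. Against docetaxel, 64 of the 73 were lower with cabazitaxel (median -0.07), beside 55.4% of all genes, and none was called. In the mitotic entry list, which includes the B-type cyclins, CDC25A, a phosphatase that activates cyclin-dependent kinases, was lowest for both drugs (-0.24 for cabazitaxel and -0.19 for docetaxel). In the passenger and shugoshin list SGO2 was highest (0.04 for cabazitaxel and 0.06 for docetaxel). Among kinetochore genes CENPI was lowest with cabazitaxel (-0.28), while with docetaxel CENPU was lowest (-0.17) and CENPH highest (0.24).

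The other lists stayed within similar bounds. The checkpoint gene KNTC1 was lowest of its list for both drugs (-0.27 for cabazitaxel and -0.16 for docetaxel), and the highest was SPDL1 (0.03) for cabazitaxel and BUB1 (0.17) for docetaxel. In the anaphase-promoting complex list its inhibitor FBXO5 was lowest for both (-0.26 for cabazitaxel and -0.18 for docetaxel), and the highest was the subunit CDC23 for cabazitaxel (0.05) and the subunit ANAPC1 for docetaxel (0.20). NIPBL, which loads cohesin, was the highest cohesin and condensin gene for both (0.20 for cabazitaxel and 0.24 for docetaxel), and CDCA5, a cohesin stabiliser, was lowest for docetaxel (-0.17). Among cytokinesis genes CKAP2L was lowest for both (-0.18 for cabazitaxel and -0.07 for docetaxel), and the highest was CEP55 for cabazitaxel (0.04) and ECT2 for docetaxel (0.10).

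In full minus charcoal serum 58 of the 73 genes were higher, with a median of 0.07, where 50.9% of all genes were lower. By the test 3 of the 73 rose, beside 122 of all 11105 genes. CENPN, which reads centromeric chromatin, rose by 0.94 (SE 0.05, adjusted p = 1.85e-06), a call that held without any single array. CENPU, of the same inner kinetochore, rose by 0.23 (adjusted p = 0.0360), and FBXO5 by 0.24 (adjusted p = 0.0232). The CENPU call was lost in 10 and the FBXO5 call in 9 of 12 fits that left out 1 array, with adjusted p up to 0.111 for CENPU and 0.0713 for FBXO5. Both calls were also lost when an offset of 16 was subtracted before log2 (adjusted p = 0.182 for CENPU and 0.108 for FBXO5). The highest values in the other lists were MYBL2 (0.27, a transcription factor of the MuvB complex), AURKB (0.23, the passenger complex kinase), MAD2L1 (0.21), ESCO2 (0.22) and NUSAP1 (0.12), and the lowest were CDC25C (-0.08), CDCA8 (0.00), CENPC (-0.12), MAD1L1 (-0.03), FZR1 (-0.04), STAG2 (-0.18) and ECT2 (-0.07), none called. Over all arrays the adjusted p was 0.117 for MYBL2 and 0.144 for AURKB. Without the first docetaxel array in charcoal serum the MYBL2 difference was 0.36. Without the first cabazitaxel array in charcoal serum the AURKB difference was 0.29. ESCO2 passed after quantile normalization (adjusted p = 0.0485) and with a stricter filter on dim genes (adjusted p = 0.0475).

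S-phase genes were listed for contrast. With cabazitaxel all 23 tested were lower than with vehicle, at a median of -0.19 and from -0.45 (MCM5) to -0.01 (CDT1). With docetaxel 22 of 23 were lower, at a median of -0.17 and from -0.35 (MCM10) to 0.01 (CDT1). None was called in either, and 48.9% of all genes were lower with cabazitaxel and 45% with docetaxel. In full minus charcoal serum all 23 were higher (median 0.18), from 0.03 (TYMS) to 0.52 (CDC6), where 50.9% of all genes were lower. Beside 122 of all 11105 genes, 7 of the 23 rose by the test. These were CDC6, CLSPN (0.33), CDC45 (0.30), RRM2 (0.29), MCM4 (0.22), PCNA (0.22) and CCNE2 (0.19), with adjusted p between 0.00308 and 0.0439. CDC6, CLSPN and CDC45 stayed called without any single array, while MCM4 and CCNE2 lost the call in 11 of 12 such fits and PCNA and RRM2 in 7 of 12 each. With the offset of 16 subtracted CDC45 (adjusted p = 0.0641), RRM2 (0.0835), CCNE2 (0.175), PCNA (0.191) and MCM4 (0.207) lost the call, while CDC6 (0.0178) and CLSPN (0.0245) kept it. CLSPN lost it when its transcript clusters were averaged (adjusted p = 0.0701). CCNB1 and CCNB2 had positive values with both drugs, although the CCNB1 intervals held 0. With each drug 6 of the 10 mitotic genes had negative values, as did all tested S-phase genes except CDT1 with docetaxel. The contrast of the B-type cyclins with the S-phase genes was not itself tested.

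Among themselves the 10 genes varied with little in common over the 12 arrays. The median Pearson r over their 45 pairs was 0.11, and 17 pairs were below 0. The highest were MELK with MKI67 (0.59) and BIRC5 with SGO1 (0.58), and the lowest was CCNB2 with HASPIN (-0.60). These are descriptions over arrays that share groups, with no test. The genes outside the list whose levels were most like the mean of the 10 standardised profiles were LONRF1 (r = 0.94), MARCHF5 (0.93), DSCC1 (0.91), DBF4 (0.90) and KPNA3 (0.90), over the same 12 arrays and out of 11105 genes ranked. DSCC1 takes part in sister chromatid cohesion and DBF4 activates the replication kinase CDC7.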

How the data were processed

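Total RNA of 12 LNCaP samples was amplified and hybridised to Human Gene 2.0 ST arrays, per the labels' protocols. The deposited intensity values were normalised with RMA (version not given in the sources used here), per the submitters' processing notes; the series' design text also mentions the removal of weakly expressed genes, with no threshold. The values run from 17.3 to 6307 with a median of 22.3 and are linear, and 57.5% are below 24, a floor that compresses changes of dim genes. Here log2 was taken, with no further normalisation. Of 44629 transcript clusters 15835 had 1 gene symbol and 28794 none; the brightest cluster stood for each of 14812 genes, 651 of which had several. The 11105 genes above the array median on at least 2 arrays entered limma 3.58.1, run in R 4.3.3 (1 mean per group, 12 arrays, 6 residual degrees of freedom, moderated and two-sided) with Benjamini-Hochberg adjustment over all of them and a threshold of 0.05. The script was tested on simulated data. Named genes are the 10, the lowest and highest of each list and every one called, and the 5 most alike. The 10 genes and the lists were chosen with earlier results of these data known. Same-numbered samples deviated together in part (r of deviations -0.05 to 0.33 over 15 pairs of groups, median 0.15, 10 above 0.1). The main fit did not take the numbers as pairs, and a replicate block was fitted as an alternative. Promoters come from RefSeq.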

Additional observations from a re-analysis of the deposited data

Results flagged for a closer look

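In 4 cases every taxane array of one serum lay on the opposite side of the vehicle mean from every taxane array of the other serum, 1 of the 10 genes with cabazitaxel and 3 with docetaxel. This pattern was found in 16.9% of all genes with cabazitaxel and in 17.2% with docetaxel. SKA2 with cabazitaxel was 0.34 to 0.41 log2 above the vehicle mean in full serum and at -0.037 and -0.0026 in charcoal serum, an effect that was 0.40 larger in full serum (adjusted p = 0.999). SKA2 with docetaxel was 0.22 to 0.25 above in full serum and lay at -0.16 and -0.09 in charcoal serum, 0.36 apart (adjusted p = 0.999). BIRC5 with docetaxel was 0.06 to 0.13 above in full serum and at -0.22 and -0.03 in charcoal serum, 0.22 apart (adjusted p = 0.999). MKI67 with docetaxel ran the other way, at -0.31 and -0.24 in full serum and at 0.11 and 0.21 in charcoal serum, a difference of -0.43 (adjusted p = 0.999). None of the 4 interactions passed the test in limma, and both SKA2 values use the same vehicle arrays.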

How the results depend on the processing

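The alternatives were an offset of 16 subtracted before log2, quantile normalization, no or a stricter filter on dim genes, the mean of a gene's clusters, an intensity trend with a robust prior, a replicate block, the arrays of 1 serum only, the methods' t-test within a serum, and each array left out. The count of the 10 mitotic genes called stayed at 0 in 12 of the 13 comparisons. In full minus charcoal serum over the 3 treatments it was 1 (MELK) under quantile normalization and 1 under the replicate block (adjusted p = 0.0499), and 0 to 1 when single arrays were left out; the cause was not tested. All genes called there were 256, against 132 with the offset, 359 with the replicate block and 149 to 248 with an array left out; in vehicle-treated cells they were 44, against 16, 70 and 7 to 43. The lowest counts there came without docetaxel charcoal array 2 (167), cabazitaxel full array 2 (151) and docetaxel full arrays 1 (169) and 2 (149), and in vehicle-treated cells the losses came without charcoal arrays 1 (14) and 2 (7) and full array 2 (14). The block changed no other call of the 10 genes; ESCO2 passed under it (adjusted p = 0.0267), under quantile normalization and with the stricter filter. The methods' t-test gave 431 to 554 genes at an unadjusted p under 0.05 and 0 after Benjamini-Hochberg adjustment. Of 1836 recomputed gene values 1698 kept their direction and side of the threshold, 62 changed sign, 68 lost a call and 8 gained one. Quantile normalization changed the sign of CCNB1 (0.029) and CCNB2 (0.0072) in cabazitaxel minus docetaxel, SGO1 (0.025) in that comparison in charcoal serum, SKA2 (0.00051) with cabazitaxel in charcoal serum, CDT1 (-0.011) with docetaxel, and CCNB1 (-0.012) and TYMS (-0.0059) between sera. Leaving out single arrays gave, with cabazitaxel, PLK1 -0.042 to 0.11, BIRC5 -0.16 to 0.0082, SGO2 -0.010 to 0.095, SPDL1 -0.0064 to 0.067 and CDT1 -0.099 to 0.081, with SKA2 -0.057 to 0.017 in charcoal serum. With docetaxel it gave BIRC5 -0.064 to 0.032, SGO1 -0.061 to 0.051, MKI67 -0.17 to 0.056, CDCA3 -0.21 to 0.051 and CDT1 -0.020 to 0.048. For cabazitaxel minus docetaxel it gave CCNB1 -0.060 to 0.050, PLK1 -0.14 to 0.016, BIRC5 -0.14 to 0.024, HASPIN -0.020 to 0.19 and CDCA3 -0.22 to 0.039, with SGO1 -0.14 to 0.078 in charcoal serum. Between sera it gave CCNB1 -0.021 to 0.052, SGO1 -0.012 to 0.062, CDCA3 -0.013 to 0.16, SKA2 -0.0072 to 0.017, CDCA8 -0.058 to 0.064, MAD1L1 -0.065 to 0.0027, FZR1 -0.12 to 0.027, ECT2 -0.14 to 0.0074 and TYMS -0.013 to 0.079. A lone array left in a group was taken to vary like the other groups.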

Other observations

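MKI67 was higher on the array numbered 2 than on the array numbered 1 in 6 of 6 groups, by 0.07 to 0.50 log2. Such a one-way difference in all 6 groups was found in 869 of 11105 genes (7.83%). None of the other 9 mitotic genes differed one way in all 6.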
